A study of Mus musculus with 2 samples.

Results

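The dopamine and adrenergic receptors are the G protein-coupled receptors through which dopamine, noradrenaline and adrenaline act on cells. The set described here holds 10 genes (Drd1, Drd2, Drd4 and Drd5 for dopamine; Adra1a, Adra1b, Adra1d, Adra2a, Adra2c and Adrb1 for noradrenaline and adrenaline) of 55536 gene rows in the deposited gene tables. They were chosen by gene symbol, and each symbol was found once. Poly(A)+ RNA was measured in the left cerebral cortex of adult mice of strain B6NCrl, a C57BL/6 substrain, aged 6 months. The mice were untreated as far as the labels say, with no allele or agent named. One label calls the tissue male and another gives sex as not collected. From each sample 20 ng of RNA went into a library, with Nextera tagmentation as the fragmentation step. The design holds 1 group, cortex, with 2 libraries that the labels number as biological replicates 1 and 2. Both carry the same donor entry and separate biosample records, so every spread below is the spread between these libraries and may be technical.

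In textbook pharmacology the D1-like receptors (Drd1, Drd5) couple to stimulatory G proteins and raise cyclic AMP, whereas the D2-like receptors (Drd2, Drd3, Drd4) couple to inhibitory G proteins and lower it. Among adrenergic receptors the alpha-1 group acts through Gq and phospholipase C, the alpha-2 group lowers cyclic AMP and also serves as an autoreceptor on noradrenergic terminals, and the beta group raises cyclic AMP. Dopamine reaches the cortex on axons from the ventral midbrain, and noradrenaline on axons from the locus coeruleus. The cell bodies of those neurons lie outside the cortex.

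Replicate 1 had 51888568 fragments assigned to genes in the gene tables, and replicate 2 had 26776336. In the second transcript tables, a separate quantification of the same libraries, these totals were 76101112 and 46367876. The fragments differed in length between the libraries, at 164 bases in replicate 1 and 124 bases in replicate 2 as implied by the deposited effective lengths. The second transcript tables implied shorter fragments, at 134 and 98.3 bases. Markers of excitatory neurons (5 of 5), deep layers (6 of 6), interneurons (5 of 5), astrocytes (4 of 4), oligodendrocytes (3 of 3), their precursors (2 of 2), microglia (4 of 4), endothelium (3 of 3) and mural cells (4 of 4) were all detected, that is, at 1 TPM or more in both libraries. TPM is a level per transcript length scaled to the same sum in each library, so that genes of unlike length may be set beside each other. The difference between the libraries also varied with transcript GC content. Its median log2 ratio, replicate 1 over replicate 2, ran from -0.10 under 45% GC to 1.31 at 65% or more. Comparisons of TPM between genes of unlike GC content are limited by this. In bulk tissue a lower level can come from fewer cells of a type or from less RNA per cell, which cannot be told apart.

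Of the 10 receptor genes, 6 were detected in both libraries: Drd1, Drd2, Adra1a, Adra1b, Adra1d and Adrb1. That is 60%, against 56.5% of all protein coding genes (12448 of 22028). Drd4, Drd5, Adra2a and Adra2c were below 1 TPM in at least 1 library. The summed level of the 10 genes was 62.7 TPM in replicate 1 and 27.6 TPM in replicate 2. The 4 dopamine receptor genes together stood at 17.5 TPM in replicate 1 and 16.5 TPM in replicate 2 (17 ± 0.686, SD, n = 2). The 6 adrenergic receptor genes together stood at 45.2 TPM in replicate 1 and 11.1 TPM in replicate 2 (28.1 ± 24.1, SD, n = 2). The adrenergic sum of replicate 1 was 4.07 times that of replicate 2, and the dopamine sum 1.06 times. Dopamine receptors made up 27.9% of the summed receptor level in replicate 1 and 59.8% in replicate 2.

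**Figure D1:**
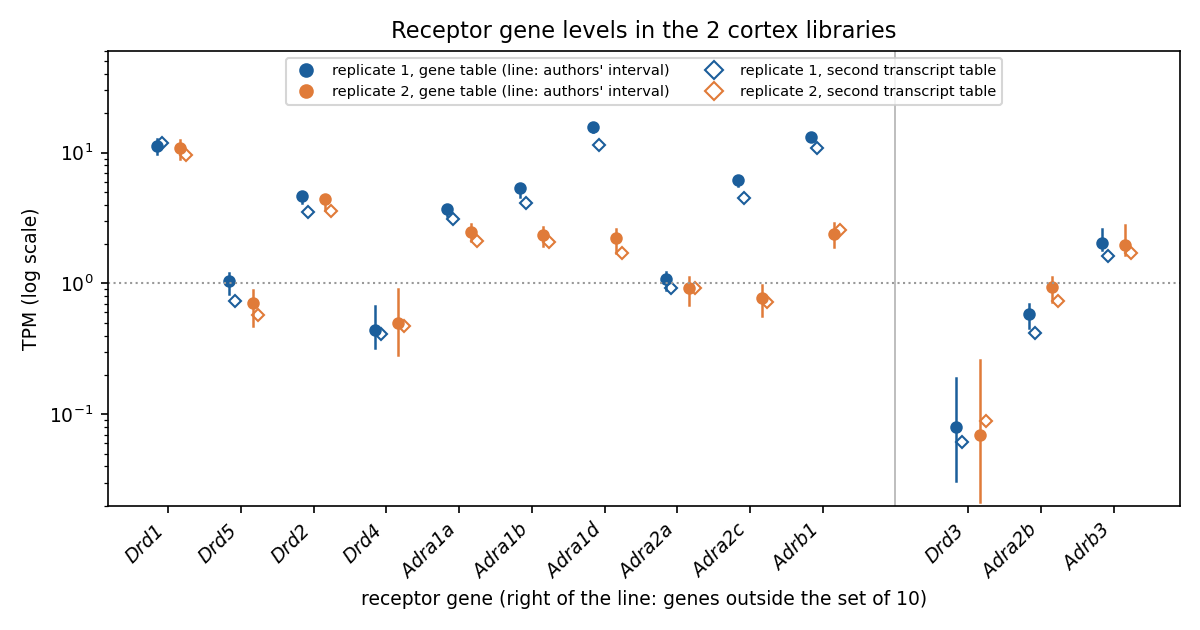
TPM on a log axis for the 10 receptor genes and, right of the line, 3 catecholamine receptor genes outside the set, with replicate 1 left of replicate 2 in each pair. Filled circles are the gene tables with the authors' interval, open diamonds the second transcript tables, and the dotted line marks 1 TPM; the circles of Drd1 nearly coincide at 11.3 and 10.9 TPM, whereas those of Adra1d lie at 15.6 and 2.24 TPM.

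Among the dopamine receptors, Drd1 was the highest. This receptor gene, whose product raises cyclic AMP in the neurons that carry it, stood at 11.3 TPM in replicate 1 and 10.9 TPM in replicate 2 (11.1 ± 0.297, SD, n = 2), on 1216 and 598 fragments. It lies on chromosome 13 (ENSMUSG00000021478.6, mm10, 54051183 to 54055705, minus strand), and 1 exon holds its coding sequence. The libraries gave almost the same level, and 68.3% of protein coding genes had a lower mean TPM.

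Drd5, the other D1-like receptor gene (ENSMUSG00000039358.3, chromosome 5, 38319367 to 38322518, plus strand), stood at 1.05 TPM in replicate 1 and 0.71 TPM in replicate 2, on 126 and 44 fragments. The Drd1 level was 10.8 times that of Drd5 in replicate 1 and 15.4 times in replicate 2. The annotation places the antisense gene Gm26560 over 1531 bases of Drd5, and since no source used here states whether counting used strand, reads of this pair may not be separable. Gm26560 itself was listed at 0.23 and 0.1 TPM.

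Drd2, which encodes the main inhibitory dopamine receptor and the dopamine autoreceptor (ENSMUSG00000032259.8, chromosome 9, 49340627 to 49408177, plus strand), stood at 4.68 TPM in replicate 1 and 4.41 TPM in replicate 2 (4.54 ± 0.191, SD, n = 2), on 448 and 218 fragments. Its level was close in the libraries. The Drd1 level was 2.42 times that of Drd2 in replicate 1 and 2.47 times in replicate 2, and 3.36 and 2.71 times by the second transcript tables. Drd4, the remaining D2-like member (ENSMUSG00000025496.5, chromosome 7, 141292006 to 141296464, plus strand), stood at 0.44 TPM in replicate 1 and 0.5 TPM in replicate 2, on only 42 and 19 fragments. It was the lowest of the 10 genes in both libraries. The D2-like gene Drd3, outside the set, had 4 and 2 fragments and was listed at 0.08 and 0.07 TPM.

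The dopamine receptor genes kept 1 order in both libraries and in both quantifications, Drd1 above Drd2 above Drd5 above Drd4. In each of the 3 neighbouring pairs of that order the 2 library values of the higher gene lay above those of the lower gene. For Drd5 and Drd4 in replicate 2 the authors' intervals overlapped, at 0.473 to 0.89 TPM and 0.282 to 0.904 TPM. In replicate 1 the intervals of this pair did not overlap.

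Drd2 is known for a long and a short form that differ by 1 alternative coding exon in the third cytoplasmic loop of the receptor. The annotation behind the deposited tables lists a single Drd2 transcript, Drd2-201, of 2547 bases and 8 exons. It includes the alternative exon, the only internal coding exon whose removal keeps the reading frame, and corresponds to the long form. The isoform percent of Drd2-201 was 100 in both libraries, a value that a single annotated transcript fixes, so the tables do not separate the long form from the short form. The exon is number 6 of 8, at chr9:49403194-49403280 (mm10, plus strand), and adds 29 residues. Its whole sequence of 87 bases, from the GENCODE M21 transcript, is shown because it is the stretch that a count of the long form would have to rest on; it is 50.6% GC.

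Drd2 alternative exon: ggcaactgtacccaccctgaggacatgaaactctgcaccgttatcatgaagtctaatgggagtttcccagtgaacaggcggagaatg

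Among the alpha-1 adrenergic receptors, which drive Gq signalling, the 3 genes stood close together in replicate 2 and far apart in replicate 1. Adra1a (ENSMUSG00000045875.13, chromosome 14, 66635251 to 66771168, plus strand) stood at 3.69 TPM in replicate 1 and 2.46 TPM in replicate 2, on 517 and 192 fragments. Adra1b (ENSMUSG00000050541.14, chromosome 11, 43774606 to 43901210, minus strand) stood at 5.37 TPM in replicate 1 and 2.33 TPM in replicate 2, on 530 and 139 fragments. Adra1d (ENSMUSG00000027335.9, chromosome 2, 131545850 to 131562283, minus strand) stood at 15.6 TPM in replicate 1 and 2.24 TPM in replicate 2, on 1090 and 81 fragments. Adra1d was thus 4.23 times Adra1a in replicate 1 and 0.911 times Adra1a in replicate 2. The antisense gene Gm14285 overlaps Adra1d by 670 bases and was listed at 0.38 TPM in replicate 1 and 0.76 TPM in replicate 2. As with Drd5 and Gm26560, reads of this pair may not be separable.

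The alpha-2 genes encode the receptors that inhibit cyclic AMP formation and, on noradrenergic terminals, transmitter release. Adra2a (ENSMUSG00000033717.6, chromosome 19, 54044151 to 54048982, plus strand) stood at 1.08 TPM in replicate 1 and 0.92 TPM in replicate 2, on 155 and 67 fragments. Adra2c (ENSMUSG00000045318.6, chromosome 5, 35278319 to 35281763, plus strand) stood at 6.19 TPM in replicate 1 and 0.78 TPM in replicate 2, on 816 and 53 fragments. Which of the 2 genes was higher depended on the library, with Adra2c at 5.73 times Adra2a in replicate 1 and at 0.848 times Adra2a in replicate 2.

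Adrb1, the beta-1 receptor gene (ENSMUSG00000035283.5, chromosome 19, 56722199 to 56733113, plus strand), stood at 13.2 TPM in replicate 1 and 2.37 TPM in replicate 2, on 1483 and 130 fragments. Of receptor genes outside the set, Adrb3 was at 2.05 and 1.96 TPM and Adra2b at 0.58 and 0.94 TPM in replicates 1 and 2.

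By mean TPM the adrenergic order was Adra1d, Adrb1, Adra1b, Adra2c, Adra1a and Adra2a. Of its 5 neighbouring pairs, 1 (Adra1a above Adra2a) had library values that did not overlap, and the other 4 did not differ beyond the spread between the libraries. By the second transcript tables, 0 of 5 pairs stood apart. Over all 10 genes, Adra1d ranked at 1 in replicate 1 and at 6 in replicate 2, Adra2c at 4 and 8, and Adrb1 at 2 and 4, whereas Drd1 ranked at 3 and 1 and Drd2 at 6 and 2.

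For each gene the rounded expected counts of the libraries were then set against each other in an exact binomial test (two-sided), after scaling by the trimmed mean of M values (TMM). The test sets 1 library against 1 and so compares these libraries, not conditions, and a gene was called at a Benjamini-Hochberg adjusted p under 0.05 over the 14656 genes whose mean CPM, the count scaled to library size, was 1 or more. Log2 ratios are of replicate 1 over replicate 2, on CPM plus 0.5, which pulls low genes toward 0; their intervals leave the 0.5 out and cover counting error only. Of all tested genes 62.6% were called, 36.4% as higher in replicate 1 and 26.2% as lower. Of the 10 receptor genes 9 passed the filter (Drd4 did not), and 7 of those were called, all higher in replicate 1. That direction and frequency are read against a background in which most genes were called. Over the 10 receptor genes, with the untested Drd4 included, the log2 ratio ran from 0.19 to 2.82. Its median was 0.56, against a median of 0.03 over all tested genes.

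Size set the receptor genes apart from each other. Of the 9 tested, 4 were called at 1.5-fold or more higher in replicate 1, against 17.2% of all tested genes, and 3 at 4-fold or more, against 2.03%. At 1.5-fold or more lower in replicate 1 there were 0 receptor genes, against 3.22% of all tested genes. These folds are on CPM plus 0.5; without the 0.5, Drd5 and Adra1a were also past 1.5-fold, at 1.62 and 1.52. The 3 genes past 4-fold were Adra2c, Adra1d and Adrb1. The log2 ratio was 2.82 for Adra2c (95% interval 2.72 to 3.55; adjusted p = 6.37e-96, exact binomial test), or 8.69-fold by CPM without the 0.5. For Adra1d it was 2.73 (2.60 to 3.27; adjusted p = 3.62e-120, exact binomial test), or 7.59-fold. For Adrb1 it was 2.56 (2.43 to 2.96; adjusted p = 7.43e-150, exact binomial test), or 6.44-fold. These ratios lay outside the central 90% of all tested genes, which ran from -0.49 to 1.39.

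Adra1b followed with a log2 ratio of 1.03 (0.83 to 1.39; adjusted p = 4.80e-17, exact binomial test), or 2.15-fold by CPM without the 0.5. Adra1a and Drd5 were called at smaller ratios, 0.57 (adjusted p = 1.18e-06, exact binomial test) and 0.55 (adjusted p = 0.00939, exact binomial test). Drd5 was no longer called once the trend on coding GC content was removed (0.39, adjusted p = 0.0537, exact binomial test). Drd1 was called at 0.19 (0.06 to 0.34; adjusted p = 0.0111, exact binomial test), which is below the median absolute log2 ratio of all tested genes, 0.25. With total counts in place of TMM the ratio of Drd1 was 0.07 and it was not called. Drd2, at 0.20 (-0.02 to 0.45; adjusted p = 0.111), and Adra2a, at 0.32 (-0.04 to 0.82; adjusted p = 0.103), did not pass the exact binomial test. Drd4, at 0.19 with an interval from -0.50 to 1.18, was too low to be tested. Outside the set, Adra2b was called lower in replicate 1, at -0.48 (adjusted p = 0.0159, exact binomial test), and Adrb3 did not pass it, at 0.21.

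The second transcript tables gave the same direction for the receptors that differed most. Their TPM was 11.5 in replicate 1 and 1.7 in replicate 2 for Adra1d, 4.46 and 0.727 for Adra2c, and 10.9 and 2.55 for Adrb1. For Drd1 they gave 11.8 TPM in replicate 1 and 9.63 in replicate 2, and for Drd2 3.52 and 3.55. Both quantifications start from the same reads and are not replicates of each other.

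**Figure D2:**
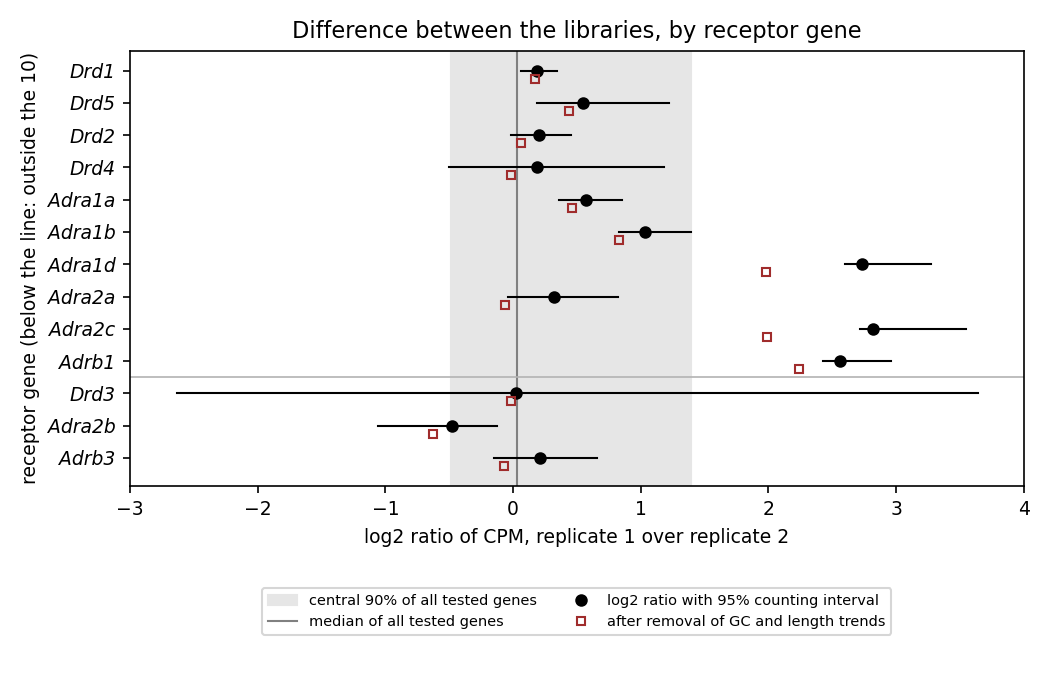
Log2 ratio of CPM, replicate 1 over replicate 2, for each receptor gene (black circles) with its 95% counting interval, and the ratio after the trends on transcript GC content and length were removed (red squares). Adra1d, Adra2c and Adrb1 lie between 2.56 and 2.82, right of the shaded central 90% of all tested genes (-0.49 to 1.39).

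The receptor genes that differed most were rich in G and C. GC content is a property of the sequence that was not used to choose the genes. The transcripts of Adra2c were 65.5% GC and those of Adra1d 65.4%, and only 77 of the tested genes reached 65%. Those 77 genes had a median log2 ratio of 1.31, and 27.3% of them were 4-fold or more higher in replicate 1. Adrb1 was 58.7% GC over the transcript and 68.7% over its coding sequence. By transcript it fell among 3191 genes of 55% to 60% GC with a median log2 ratio of 0.20, of which 3.07% were past 4-fold. By coding sequence it fell among 393 genes of at least 65% GC, with a median of 0.54 and 12.2% past 4-fold. Its highest GC in 100 bases was 87%, in a class of 1107 genes of at least 85% with a median of 0.67 and 10.2% past 4-fold. Drd1 was the lowest of the 10 in GC content, at 47.3%, in a class of genes with a median log2 ratio of -0.02.

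Across all 14646 tested genes with a sequence, Spearman's rho between transcript GC content and log2 ratio was 0.31, and across the 10 receptor genes it was 0.59. Both are descriptions over genes of the same 2 libraries, in which genes are not independent replicates. The median transcript GC content was 56.8% for the receptor genes and 50.8% for all tested genes, and the median coding GC content 62.6% and 53.2%. Of the receptor genes 5 (Drd1, Drd5, Adra2a, Adra2c and Adrb1) have their coding sequence on 1 exon, as do 991 of the tested genes. Of genes with 1 coding exon, 3.53% were past 4-fold in replicate 1, against 1.89% of genes with more.

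**Figure D3:**
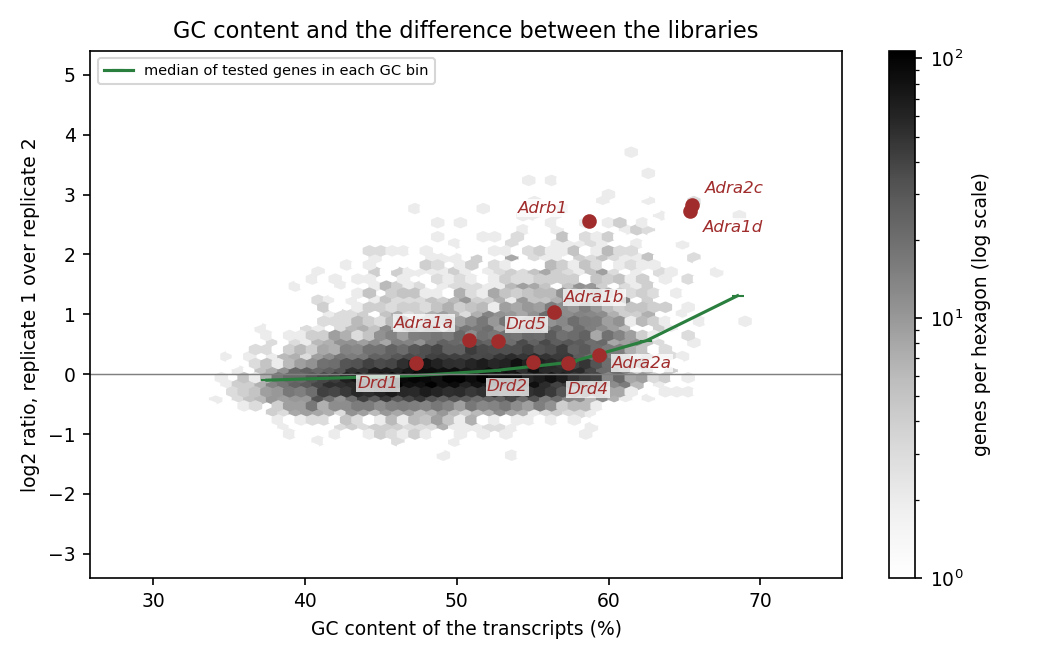
Log2 ratio of replicate 1 over replicate 2 against transcript GC content for all tested genes (grey hexagons, darker for more genes on a log scale), the receptor genes (red; Drd4 is shown although it was too low to be tested) and the median of each GC class (green line). Adra1d and Adra2c lie at the high end of GC content and above the class median of 1.31, and Drd2, Drd4 and Adra2a lie near the line.

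Receptor genes of similar coding GC content differed in log2 ratio. Adra2a and Drd4 had coding GC contents of 65.2% and 66.1%, similar to the 64.7% of Adra1d and the 65.8% of Adra2c, with log2 ratios of 0.32 and 0.19. The coding stretches of 60 bases with the most G and C, each within 1 exon, are shown for Adra1d, Adra2c and Adrb1. These 3 receptor genes differed past 4-fold. Stretches are also shown for Drd1, whose TPM was close in the libraries, and for Adra2a. Adra2a has a similar coding GC content to the 3 genes but did not pass the test. Over the transcript Adra2a is 59.4% GC, against 65.4% for Adra1d, 65.5% for Adra2c and 58.7% for Adrb1. Runs of 4 or more G or C are in capitals. The bases are those of the GENCODE M21 transcripts on mm10, 5′ to 3′ along the mRNA.
Adra1d coding stretch, chr2:131562049-131562108, minus strand: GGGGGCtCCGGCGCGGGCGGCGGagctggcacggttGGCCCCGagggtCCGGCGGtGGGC
Adra2c coding stretch, chr5:35279898-35279957, plus strand: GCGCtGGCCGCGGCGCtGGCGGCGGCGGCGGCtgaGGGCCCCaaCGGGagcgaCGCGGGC
Adrb1 coding stretch, chr19:56723516-56723575, plus strand: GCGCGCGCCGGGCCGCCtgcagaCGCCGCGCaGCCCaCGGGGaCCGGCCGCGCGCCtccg
Adra2a coding stretch, chr19:54046978-54047037, plus strand: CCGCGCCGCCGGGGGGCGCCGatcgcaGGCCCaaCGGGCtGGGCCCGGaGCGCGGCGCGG
Drd1 coding stretch, chr13:54052938-54052997, minus strand: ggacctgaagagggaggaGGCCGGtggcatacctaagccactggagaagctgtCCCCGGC

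The stretch of Adra2a was 88.3% GC, the same as that of Adrb1, and those of Adra2c and Adra1d were 86.7% and 85%. The stretch of Drd1 was 65% GC. The length of such sequence varied more among the genes. Windows of 100 bases with at least 70% GC made up 43.9% of the main Adra2c transcript, 30.6% of Adra1d, 25.8% of Adra2a and 24.5% of Adrb1. They made up 10.6% of Drd4, 10.1% of Adra1b, 7.76% of Drd5, 1.55% of Drd2, 0.438% of Drd1 and 0 of Adra1a. Adra2a and Adrb1 were close by this measure, with log2 ratios of 0.32 and 2.56. Both fell in the class of at least 85% GC in 100 bases, whose median log2 ratio was 0.67. The part of GC content in the difference between these genes was not tested.

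**Figure D4:**
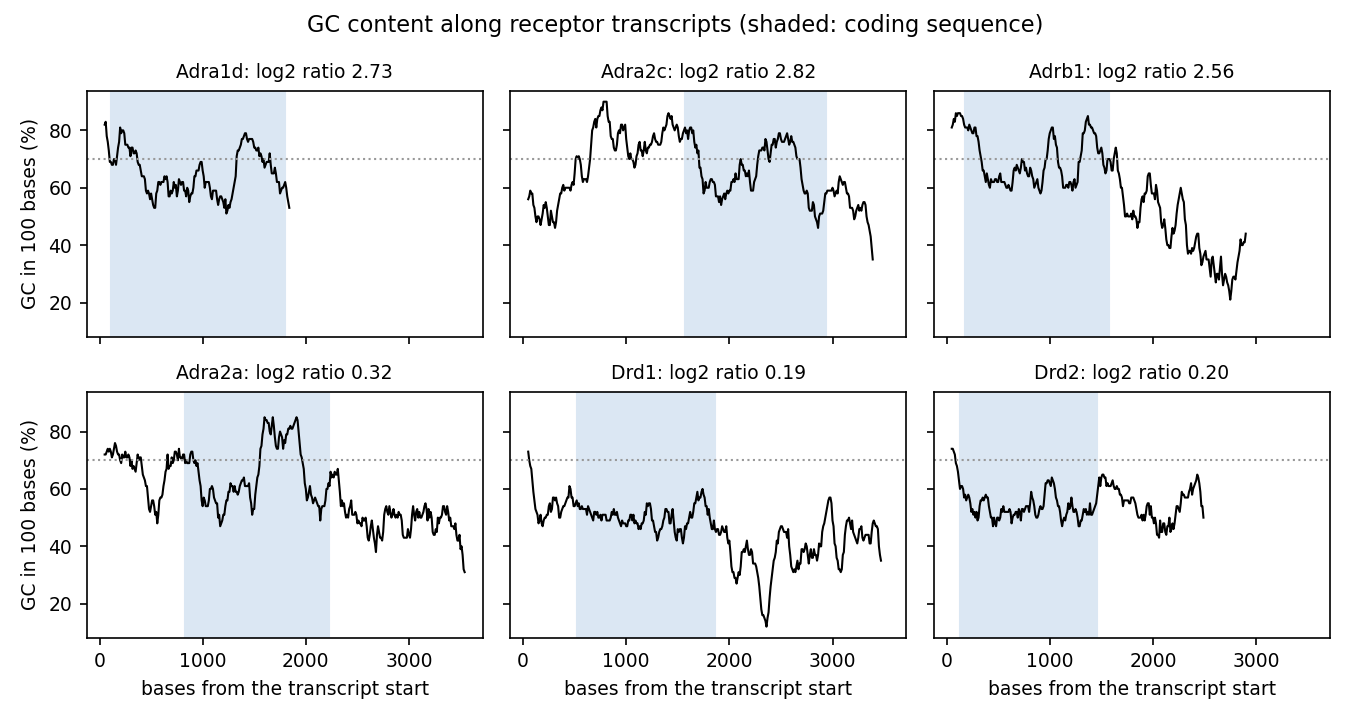
GC content in windows of 100 bases along the main coding transcript of 6 receptor genes, from the transcript start, with the coding sequence shaded and 70% GC dotted. Adra1d, Adra2c, Adrb1 and Adra2a each have long stretches above the dotted line, whereas Drd1 and Drd2 pass it only near the transcript start.

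When the trends of the log2 ratio on transcript GC content and length were removed across all genes, Adrb1 stood at 2.24, Adra2c at 1.99, Adra1d at 1.98 and Adra1b at 0.83. All 4 were still called by the exact binomial test, as were 62.2% of all tested genes (9114 of 14646). The smoother drew on a fraction of 0.3 of the genes at each point, and only 77 genes reached 65% GC. Part of the GC trend may therefore remain at that end, where Adra1d and Adra2c lie. After the trends were removed Adra1a stood at 0.46, Drd5 at 0.44 and Drd1 at 0.17, and these were also still called. Adra2a then stood at -0.06 and Drd2 at 0.06, and neither was called. Fragment length also differed between the libraries, as given above. The parts that GC content and fragment length have in the differences left after the trends were removed were not tested.

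The annotation lists 23 transcripts for the 10 genes. For 4 genes (Drd2, Drd5, Adra1d and Adra2c) it lists 1, so their isoform percent carries no information. Drd1 has 3. Drd1-201 took 57.5% of the gene's TPM in replicate 1 and 48.6% in replicate 2, and Drd1-202 took 20.1% and 28%. The second transcript tables gave Drd1-201 26.1% and 29.5% and Drd1-202 29.6% and 45.5%, so the order of these coding transcripts depended on the quantification. The whole sequence of Drd1-201 lies within Drd1-202, which is longer by 47 bases at the 5′ end and 3 at the 3′ end, so the split between them rests on those bases. The noncoding Drd1-203, a processed transcript of 405 bases, took 22.4% and 23.3% on only 24.7 and 14.6 fragments, since TPM is per length. The second transcript tables gave Drd1-203 44.3% and 25%. Without it the coding transcripts of Drd1 stood at 8.78 TPM in replicate 1 and 8.36 TPM in replicate 2, still above Drd2.

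Drd4-201, the coding transcript of Drd4, took 85.3% of the gene's TPM in replicate 1 and 57.8% in replicate 2, and Drd4-202, a retained intron, 14.7% and 42.2%. The retained intron rests on 1.86 and 3.24 fragments, so a difference in share was not detectable at this depth. Adra2a-202 took 88% and 92% of Adra2a in replicates 1 and 2. Adrb1-201 took 100% and 94.4% of Adrb1, where the remainder in replicate 2 was 1 fragment of a short noncoding transcript.

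Adra1a has the most annotated transcripts of the receptor genes, 6, and 3 of its coding transcripts took most of its TPM. Adra1a-202 took 35.5% in replicate 1 and 44% in replicate 2, Adra1a-203 33.5% and 42.3%, and Adra1a-206, which has the shortest coding sequence at 885 bases, 27.8% and 13.6%. Adra1a-202 and Adra1a-203 together had a log2 ratio of 0.37 between the libraries, and Adra1a-206, on 89.5 and 15.2 fragments, one of 1.15.

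Adra1b-202 and Adra1b-204 have the same 3047 bases, of which the annotation calls one noncoding and the other coding, and each was given 33.4% of Adra1b in replicate 1 and 50% in replicate 2. No read can separate identical sequences, so their sum is the measured quantity, at 3.58 TPM in replicate 1 and 2.34 TPM in replicate 2 (log2 ratio 0.70). Adra1b-203, a coding transcript named here after its values were seen, had 115 fragments and 1.78 TPM in replicate 1 and was listed at 0 in replicate 2. The second transcript tables gave Adra1b-203 34.5% and 0. The log2 ratio was thus 0.70 for the identical pair and 1.03 for the whole gene.

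**Figure D5:**
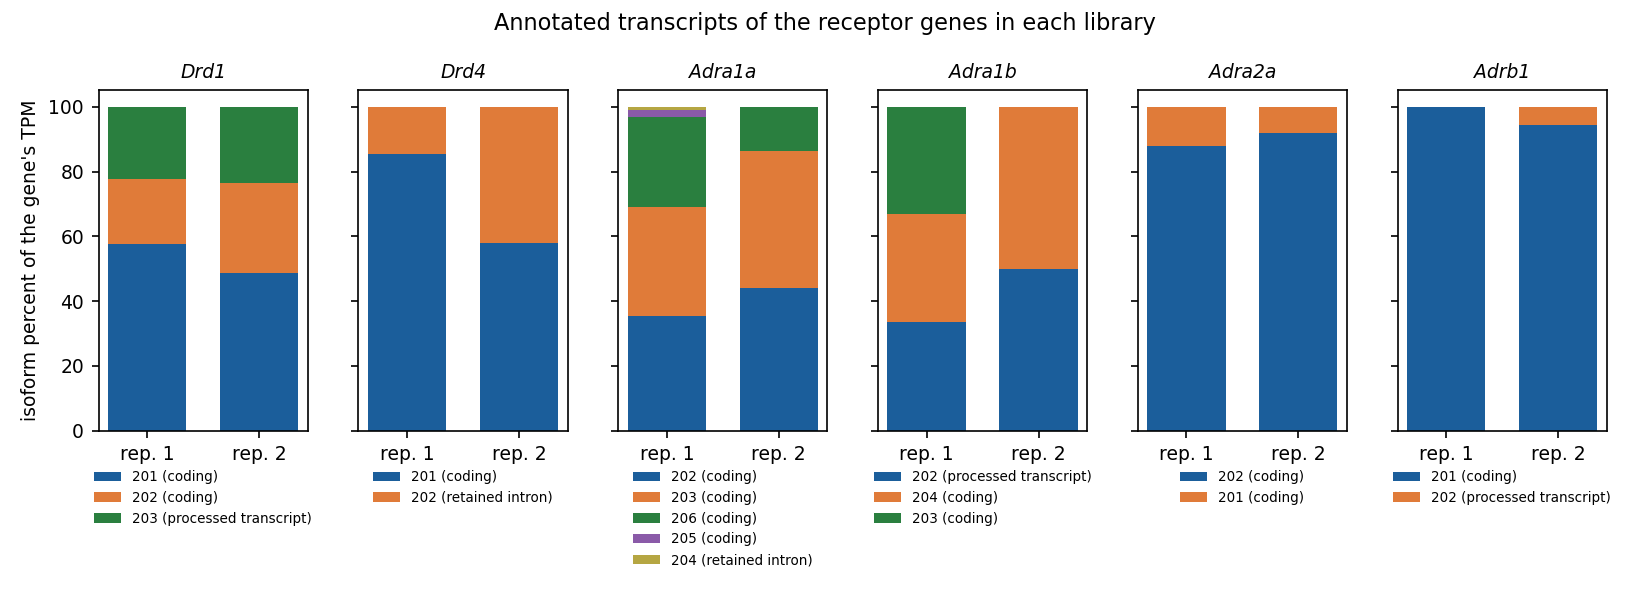
Isoform percent of each annotated transcript (the number after the gene's name) of the 6 receptor genes with more than 1 transcript, with replicate 1 left of replicate 2. Each bar sums to 100%, the whole TPM of its gene in that library; the bars of Adra1b lack transcript 203 in replicate 2, and Drd1 keeps its noncoding transcript 203 at 22.4% and 23.3%.

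The genes that make, carry and clear catecholamines were measured beside the receptors. Of 7 genes for synthesis and transport, 3 passed the filter and 1 was called, as lower in replicate 1 (2 with total counts). Ddc, the decarboxylase that forms dopamine, stood at 3.55 and 4.13 TPM in replicates 1 and 2, and Slc18a2, the vesicular monoamine transporter, at 3.25 and 4.34 TPM (log2 ratio -0.27, adjusted p = 0.014, exact binomial test). Slc6a2, the noradrenaline transporter, was listed at 0 in both libraries. None of the 4 locus coeruleus markers was detected, with a summed level of 0.23 and 0.22 TPM and 2 of 4 at 0. The highest of them was Dbh, which makes noradrenaline from dopamine, at 0.21 and 0.22 TPM. Of 7 markers of midbrain dopamine neurons 3 were detected and 2 were at 0, with the transcription factor gene Nr4a2 the highest at 14.3 and 15.7 TPM and Foxa2 listed at 0 in both libraries.

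Among the clearance genes, Maob, a monoamine oxidase, stood at 18 TPM in replicate 1 and 20.9 TPM in replicate 2. Maoa, the other oxidase, was lower in replicate 1, at 4.83 and 6.42 TPM (log2 ratio -0.27, adjusted p = 0.0017, exact binomial test), and Slc22a3 was below detection at 0.29 and 0.45 TPM.

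The genes of the signalling proteins next to the receptors ranged widely in level, and their counts of calls stand against 36.4% of all tested genes called higher and 26.2% called lower in replicate 1. Of 10 G protein alpha subunit genes 9 were tested, 7 called higher and 2 lower in replicate 1, with a median log2 ratio of 0.76 against 0.03 for all genes. Gnas, the stimulatory subunit downstream of Drd1 and Adrb1, stood at 1152 TPM in replicate 1 and 430.0 TPM in replicate 2 (log2 ratio 1.60). Gnao1, an inhibitory-class subunit abundant in brain, stood at 201 and 116 TPM (0.76), and Gna14 at 0.14 and 0.12 TPM was not tested. Of 9 adenylyl cyclases, which make cyclic AMP, 4 were called higher and 2 lower (2 to 4 lower over the alternatives). Adcy1 stood at 13.8 and 18.3 TPM in replicates 1 and 2, Adcy2 at 17 and 14.4, Adcy3 at 16.7 and 11.7 (log2 ratio 0.87) and Adcy7 at 0.58 and 0.35.

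Of 10 effectors of cyclic AMP 6 were called higher and 3 lower in replicate 1 (3 to 6 lower over the alternatives). Prkar1b and Prkar1a, regulatory subunits of protein kinase A, were the highest, at 562 and 467 TPM and at 273 and 328 TPM in replicates 1 and 2. Prkar2b had the largest ratio of the list, at 28.9 and 9.26 TPM (log2 ratio 1.79). Its transcript GC content was 43.8%, below the median of the tested genes. Its highest GC in 100 bases was 83%, the same as that of Adra1d, in a class of 80% to 85% with a median log2 ratio of 0.40. Prkar2a stood at 12.8 and 5.68 TPM.

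Of 7 effectors on the Gq side 3 were called higher and 1 lower (1 to 3 lower over the alternatives). Prkcb, a protein kinase C, stood at 285 TPM in replicate 1 and 152 TPM in replicate 2 (log2 ratio 1.64), and Plcb2 at 1.54 and 1.81. Of 7 receptor kinases and arrestins, which switch receptors off, 3 were called higher and 0 lower. Of these kinases and arrestins 3 were called lower with total counts, 2 after the GC content and length trends were removed and 1 by the second transcript tables. Grk2 stood at 56.1 and 51 TPM in replicates 1 and 2, Arrb1 at 13.5 and 14.5, Grk6 at 13.4 and 3.81 (log2 ratio 1.90) and Grk5 at 0.85 and 1.06.

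Among 4 genes for proteins that bind dopamine receptors, 1 was called higher and 3 lower in replicate 1. Caly, which binds Drd1, stood at 354 TPM in replicate 1 and 453 TPM in replicate 2. Ncs1, a calcium sensor that binds Drd2, stood at 223 and 355 TPM (log2 ratio -0.53), and Ppp1r9b, the spine protein spinophilin, at 37.3 and 21.7 TPM (0.95).

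Drd1 and Drd2 are best known from the projection neurons of the striatum, which lies under the cortex, and both are also transcribed in cortical neurons. Of 10 striatal marker genes, 9 were detected in both libraries and 0 were at 0, with a summed level of 612 TPM in replicate 1 and 610.4 TPM in replicate 2. Penk, the enkephalin precursor, stood at 236 and 286 TPM in replicates 1 and 2, and Ppp1r1b, a protein phosphatase inhibitor controlled by dopamine, at 197 and 169 TPM. Syndig1l had the largest ratio of the list, at 22.4 and 4.66 TPM (log2 ratio 2.04), and Six3 the lowest level, at 1.29 and 0.83 TPM. The tested markers split into 4 called higher and 5 called lower in replicate 1 (2 to 4 higher over the alternatives). The summed striatal level and the levels of Drd1 and Drd2 were alike in the libraries, and how much of the Drd1 and Drd2 RNA came from striatal tissue was not tested.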

How the data were processed

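Each library had a gene table and 2 transcript tables on mm10 with GENCODE M21, per the deposited notes. Gene tables and first transcript tables hold expected counts, TPM, TPM interval bounds and isoform percent, which the authors computed from transcriptome alignments, per the file headers and deposited notes. In the second transcript table the authors deposited estimated counts and TPM derived from the read files, per the deposited notes. Counts were deposited without normalization, and TPM as deposited sums to 1000000 per library. The authors' aligner and quantifiers, with their versions, were not given in the sources used here. Rows without a gene ID (26345) held 1.73e-05 and 3.35e-05 percent of fragments in replicates 1 and 2 and were left out. Of 55536 gene rows, 55450 carried a symbol.

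Expected counts were rounded, scaled by TMM (edgeR 4.0.16 in R 4.3.3) and compared between the libraries with an exact two-sided binomial test (scipy 1.17.1), with Benjamini-Hochberg adjustment over all genes at a mean CPM of 1 or more. No quasi-likelihood test could be fitted, since 1 library against 1 leaves no residual degrees of freedom. Log2 ratios used CPM plus 0.5, and their 95% Clopper-Pearson intervals left the pseudocount out. Without molecular identifiers these intervals cover counting error only. Levels are TPM with mean ± SD over 2 libraries. A lowess smoother (statsmodels 0.14.6, fraction 0.3) took out the trends on GC content, weighted by transcript TPM, and on length. The test was run on simulated data with 200 changed genes, drawn with counting error only. Other spread between libraries was not simulated in that run, so it does not show how often real libraries differ.

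Alternatives were total-count and DESeq2 (1.42.0) scaling, other filters, pseudocounts and detection levels, the second transcript tables, GC trends and leaving out each library. The trends on coding GC and on the highest GC of 100 bases were chosen after seeing the data. The members and gene lists were chosen with earlier results of these data known. Named genes were the 10 members, other catecholamine receptor genes, member transcripts with at least 10 percent of their gene in both libraries, and from each signalling, transmitter and striatal list the 2 highest genes, the lowest and the one with the largest ratio. A few of the genes this rule names are left out of the text. Neuron, glia and vessel marker lists are given as counts. No gene was named for a pattern like a member's, since 2 libraries give no pattern.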

Additional observations from a re-analysis of the deposited data

How the results depend on the processing

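No paired analysis was possible because the labels give 1 group only. With total counts in place of TMM the median log2 ratio of all genes moved to -0.09 from 0.03, and 4134 genes were called higher and 5776 lower in replicate 1, a share of 41.7% higher against 58.1% under TMM (5328 higher and 3843 lower). Genes at 1.5-fold or more lower in replicate 1 numbered 830 with total counts and 258 with a mean CPM filter of 5, against 472. The receptor genes called higher numbered 6 to 8 under every alternative run and 0 were called lower. Drd1 lost its call with total counts (log2 ratio 0.07), Drd5 with the coding GC trend (0.39), and Drd2 gained one in the second transcript tables (0.21, adjusted p = 0.0292, exact binomial test). Over all alternatives Adra1d ranged from 1.98 to 2.88, Adra2c from 1.99 to 3.05, Adrb1 from 2.02 to 2.66 and Adra1b from 0.80 to 1.09; Adra2a ranged from -0.22 to 0.37 and Drd4 from -0.20 to 0.34. Summed dopamine receptor TPM was 15.4 by the second transcript tables, against 17, and 16.5 to 17.5 leaving out 1 library; the adrenergic sum was 11.1 to 45.2. Members detected numbered 6 without replicate 1 and 9 without replicate 2, and 9 at 0.5 TPM. The library comparison could not be repeated with a library left out. Of 320 list counts under alternatives, 47 moved by more than 1.5 times. Depth limits Drd4, Drd3 and the minor transcripts most.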

Other observations

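Adra2b, a catecholamine receptor gene outside the set of 10, was assigned to different transcripts in the libraries. All of its 88 fragments in replicate 1 went to Adra2b-201, and all of its 75 fragments in replicate 2 went to Adra2b-202. The second transcript tables gave Adra2b-201 100% in replicate 1 and 0.0351% in replicate 2. Adra2b-201 lies whole within Adra2b-202, which has 78 more bases at its 5′ end. The transcript named for Adra2b was chosen after its values were seen.

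Adra1b-203, with 115 fragments in replicate 1 and 0 in replicate 2, is the only member transcript with over 100 fragments in one library that was listed at 0 in the other.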
